A study of Homo sapiens with 42 samples.

Results

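The ZNF genes of chromosome 19 are protein-coding genes named ZNF and a number, most of which encode KRAB zinc finger proteins. They were chosen by symbol, by chromosome and by the GENCODE protein-coding biotype, and ZNF649, ZNF577 and ZNF473 were set aside, which left 237 of the 58243 gene IDs in the count tables. The rule itself uses no measured value. Of the 237 genes, 203 had enough counts to be tested in mRNA, 211 in nuclear RNA and 201 in both, and 24 passed the count filter in neither.

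The study followed RNA processing in K562, an established cell line grown from a patient with chronic myeloid leukemia in blast crisis and driven by the BCR-ABL1 kinase. Cells were left untreated (CTRL), treated with 1 µM imatinib (IM), which inhibits BCR-ABL1, treated with 5 µM JTE-607 (JTE), which inhibits the CPSF73 nuclease that cleaves pre-mRNA at its 3′ end, or given 110 mM KCl as a hyperosmotic shock. Poly(A) mRNA was sequenced from CTRL and after 1, 6 and 18 h of IM, 1, 6 and 18 h of JTE, and 1 and 3 h of KCl, and ribosomal RNA-depleted nuclear RNA from CTRL, IM 1h, IM 18h, JTE 1h and KCl 1h. Each of the 14 groups held 3 libraries, which the study's methods describe as biological replicates, and all came from the same cell line, so the spread measured here is that between cultures.

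KRAB zinc finger proteins bind DNA through arrays of C2H2 fingers, in which a pair of cysteines and a pair of histidines hold a zinc ion, and many of them bind transposable elements. Their KRAB domain recruits TRIM28, which brings the histone methyltransferase SETDB1 and the HP1 proteins and so silences the bound locus. The genes arose by repeated tandem duplication, lie in clusters on chromosome 19, and their mRNAs are known as a class for short half-lives, so that their levels can fall soon after transcription or 3′-end formation is disturbed.

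Counts assigned to genes ranged from 16439848 to 22505595 per mRNA library, apart from KCl 1h replicates 2 and 3 with 62953314 and 42474454, and from 16175394 to 25103205 per nuclear library. Levels are given as CPM, the usual abundance unit in which each library is scaled to the same total count. The erythroid genes that mark K562 were present in every mRNA library, with HBE1 between 732 and 5520 CPM and GATA1 between 118 and 204 CPM, while the T cell gene CD3E stayed at or below 0.434 CPM and the liver gene ALB at or below 0.539 CPM. The epithelial gene EPCAM was not near 0, at 75 to 108 CPM. A gene was called changed at a Benjamini-Hochberg adjusted p below 0.05 in edgeR's quasi-likelihood test over all genes of that RNA fraction, together with a log2 fold change of at least 0.6 in size. In such bulk samples, fewer cells that express a gene and less RNA per cell cannot be told apart.

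The promoters and finger coding sequence of the members that carry the main comparisons are shown first. ZNF441 and ZNF439 lie in the same cluster and went in opposite directions in KCl, ZNF528 was among the largest rises in IM 18h, and ZNF526 had the lowest adjusted p of the members in JTE 1h. Each window runs from 250 bases before to 50 bases after the RefSeq start of the gene on GRCh38.p14, on the plus strand, and capitals mark GGGCGG (the GC box bound by SP1-like factors) or CCGGAAG (the core bound by ETS factors), searched on both strands. The windows are chr19:11766750-11767049 for ZNF441, chr19:11848476-11848775 for ZNF439, chr19:52397599-52397898 for ZNF528 and chr19:42220062-42220361 for ZNF526.
ZNF441: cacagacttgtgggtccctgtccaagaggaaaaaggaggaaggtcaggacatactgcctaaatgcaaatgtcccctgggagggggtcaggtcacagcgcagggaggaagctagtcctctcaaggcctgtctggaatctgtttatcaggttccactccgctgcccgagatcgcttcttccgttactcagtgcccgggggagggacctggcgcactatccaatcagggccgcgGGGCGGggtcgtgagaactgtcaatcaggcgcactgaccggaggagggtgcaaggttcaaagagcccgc
ZNF439: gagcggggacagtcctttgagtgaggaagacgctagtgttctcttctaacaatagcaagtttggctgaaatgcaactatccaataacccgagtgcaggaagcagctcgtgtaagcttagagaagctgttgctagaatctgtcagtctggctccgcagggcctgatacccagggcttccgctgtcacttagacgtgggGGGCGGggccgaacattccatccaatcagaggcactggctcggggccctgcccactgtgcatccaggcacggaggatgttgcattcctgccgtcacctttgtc
ZNF528: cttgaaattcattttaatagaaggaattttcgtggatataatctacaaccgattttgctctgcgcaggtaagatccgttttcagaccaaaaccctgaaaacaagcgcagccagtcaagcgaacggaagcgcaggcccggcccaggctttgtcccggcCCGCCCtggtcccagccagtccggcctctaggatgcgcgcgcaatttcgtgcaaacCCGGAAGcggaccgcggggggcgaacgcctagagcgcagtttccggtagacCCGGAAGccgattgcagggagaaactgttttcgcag
ZNF526: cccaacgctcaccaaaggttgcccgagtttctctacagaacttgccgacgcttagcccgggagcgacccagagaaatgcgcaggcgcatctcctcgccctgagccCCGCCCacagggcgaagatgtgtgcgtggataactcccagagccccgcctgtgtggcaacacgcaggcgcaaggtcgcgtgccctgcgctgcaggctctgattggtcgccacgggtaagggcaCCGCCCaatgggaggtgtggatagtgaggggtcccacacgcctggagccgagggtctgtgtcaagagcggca
The G and C content of these windows was 59.3%, 55.7%, 56.3% and 64.7%, in that order. ZNF528 held 27 CG dinucleotides and the ETS core at 2 places, whereas ZNF441 held 14 and ZNF439 12 CG dinucleotides and neither held the ETS core.

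A promoter window was at hand for 209 of the 237 members and for 15289 protein-coding genes in all. For members the RefSeq start nearest the annotated gene start was used, and for the protein-coding genes the first start listed. The shares below thus rest on windows chosen in different ways. The ETS core CCGGAAG was found in 43.5% of member windows and in 14.4% of all protein-coding windows, and GGGCGG in 69.4% and 59.3%. TTCNNNGAA, the spaced palindrome that STAT factors bind, was found in 15.8% of member windows and 6.95% of all. The site of AP-1 factors, written TGACTCA, was found in 2.39% of member windows and 3.67% of all. The erythroid factor motif AGATAA was found in 5.26% of member windows and 7.46% of all. The core AAGATGG, which YY1 binds, was found in 7.66% of member windows and 6.44% of all. The palindrome TCTCGCGA was found in 1.44% of member windows and 1.81% of all. All motifs were searched on both strands, and the ETS core overlapped the GC box in 1 member window and the STAT motif in 1. Among the 58 members with a window that were higher in IM 18h the ETS core share was 41.4%, and among the 50 that were lower in KCl 3h it was 44%, against 43.5% of all members. AGATAA was found in 10.3% and 4% of these subsets, against 5.26% of all members, that is in 6 and 2 windows, and TTCNNNGAA in 20.7% and 18%, against 15.8%. These differences were not tested. A match is a run of letters in a window and was not tested as a bound site.

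The repeat structure of the family is seen in the coding sequence of ZNF441 (ENSG00000197044) and ZNF439 (ENSG00000171291). The stretches below hold 3 consecutive finger units each from exon 4, at chr19:11781253-11781504 for ZNF441 and chr19:11868051-11868302 for ZNF439 on the plus strand of hg38, with the codons of the zinc-holding cysteines and histidines in capitals.
ZNF441: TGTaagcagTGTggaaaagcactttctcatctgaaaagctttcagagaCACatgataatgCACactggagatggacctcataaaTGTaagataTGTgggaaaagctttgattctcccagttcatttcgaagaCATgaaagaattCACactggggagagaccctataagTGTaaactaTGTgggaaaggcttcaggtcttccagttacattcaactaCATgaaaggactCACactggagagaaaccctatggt
ZNF439: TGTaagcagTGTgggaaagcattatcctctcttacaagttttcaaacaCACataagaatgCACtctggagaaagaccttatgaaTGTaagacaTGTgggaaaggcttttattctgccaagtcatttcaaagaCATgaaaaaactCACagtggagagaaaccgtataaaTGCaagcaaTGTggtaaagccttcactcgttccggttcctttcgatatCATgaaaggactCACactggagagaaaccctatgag
These stretches were chosen as the ones with the most identical bases among all such pairs from ZNF441 and ZNF439. They were identical at 202 of 252 positions, or 80.2%, which is not the identity of the whole coding sequences. No run of 100 exon bases was shared between ZNF441 and ZNF439 and the rest of the family. The deposited counts used only reads with 1 genomic position, so reads from stretches that members share were lost. Of the 237 members, 196 shared no run of 100 exon bases with another and 6 shared more than 10% of such runs, the most being 33.1% in ZNF98, a member not tested in mRNA.

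Most members had the parts of a KRAB zinc finger protein. A KRAB A box motif was found in the translated protein of 200 members and not in 37, and the number of finger motifs ran from 1 to 39 with a median of 12. The median protein had 577 residues. On the chromosome, 226 members lay in 10 clusters, defined as runs with gaps of at most 500 kb, and 11 lay outside. The largest cluster held 41 members between 57191500 and 58481230 near the end of the long arm, and the next held 37 members each, between 19668796 and 24129961 beside the centromere and between 51571298 and 53580269. The cluster with ZNF441 and ZNF439 held 25 members between 11483427 and 12640098. A same-strand gene overlapped 96 members and an opposite-strand gene 124, and as the counting used no strand setting, reads of an opposite-strand partner could enter a member's count.

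In CTRL the members were expressed at modest levels. The median member had 6.99 CPM in mRNA, against 8.70 over all 18095 tested genes, and 8.29 CPM in nuclear RNA, against 4.29 over all 21929 tested genes. Per kilobase of counted exon, the highest member in both fractions was ZNF146, a protein made almost wholly of fingers, with 52.7 CPM per kilobase in mRNA and 27.1 in nuclear RNA. ZNF146 stood at 219 ± 11 CPM in mRNA and 112 ± 42.1 CPM in nuclear RNA (SD, n = 3). ZNF121 followed with 20.5 CPM per kilobase in mRNA and 25.7 in nuclear RNA.

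Next in mRNA came ZNF317 with 13.9, ZNF787 with 10.3 and ZNF584 with 8.22 CPM per kilobase. In nuclear RNA, ZNF460 came before ZNF317 and ZNF787, with 19.7, 16.5 and 14.9 CPM per kilobase. ZNF460 had the highest nuclear to mRNA ratio of all members in CTRL, 69.1 ± 4.08 CPM in nuclear RNA against 5.75 ± 1.66 CPM in mRNA (SD, n = 3), a log2 ratio of 3.51. ZNF146 had the lowest log2 ratio, -1.02. The median ratio of the 201 members was 0.24, that of ZNF genes on other chromosomes 0.31 (n = 204), that of the other protein-coding genes of chromosome 19 0.55 (n = 796) and that of all genes 0.31 (n = 16728), with 0.5 CPM added to each value. The fractions were prepared with different kits, so these ratios are descriptions.

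Imatinib changed no member detectably in 1 h, and by 18 h it was the treatment with the most members higher. At IM 1h, 0 of 203 members passed the test in mRNA, where 0.0166% of all genes did in either direction, and 1 member, or 0.493%, had an unadjusted p below 0.05 in edgeR's test against 1.14% of all genes. At IM 6h, 9 members were higher and 5 lower, against 5.82% and 4.12% of all genes, that is 4.43% and 2.46% of the members. At IM 18h, 66 members were higher and 8 lower, or 32.5% and 3.94%, where 17.2% and 13.2% of all genes were. The median log2 fold change of the members went from 0.02 at 1 h to 0.12 at 6 h and 0.46 at 18 h, and that of all genes was 0.00, 0.04 and 0.04. At IM 18h, 160 of the 203 members had a fold change above 0.

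**Figure D1:**
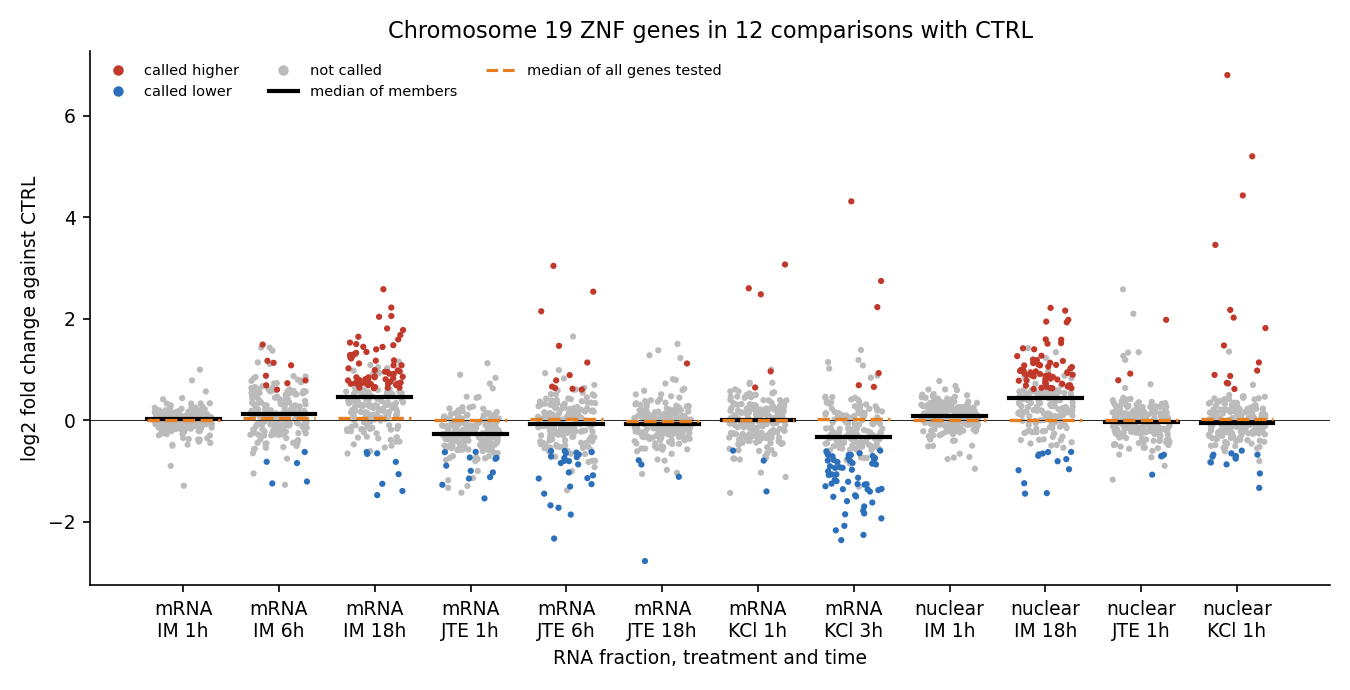
Log2 fold change against CTRL (y axis) of each tested chromosome 19 ZNF gene in the 12 comparisons (x axis, by RNA fraction, treatment and time), coloured by call, with the medians of the members (black) and of all genes (dashed). The IM 18h distributions lie highest, with medians of 0.46 in mRNA and 0.43 in nuclear RNA, and the KCl 3h distribution lowest, with a median of -0.34.

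ZNF528 (chr19:52397849-52418412, plus strand), the KRAB gene whose promoter is printed above, was among the larger rises. It was at 5.76, 5.47 and 2.92 CPM in the IM 18h mRNA libraries and at 1.38, 0.891 and 1.17 CPM in CTRL. All 3 treated libraries lay above the CTRL libraries, although replicate 3 rose less. The log2 fold change was 2.04 (SE 0.40, adjusted p = 0.000237, edgeR).

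ZNF554 was at 6.84, 7.53 and 5.45 CPM in IM 18h against 1.27, 2.04 and 2.34 CPM in CTRL. Its groups did not overlap, and the log2 fold change was 1.81 (SE 0.30, adjusted p = 4.19e-05). ZNF404 had the largest fitted rise, 2.58 (SE 0.51, adjusted p = 0.00028), from 0.11, 0.105 and 0.334 CPM in CTRL to 0.977, 1.16 and 1.21 CPM. Its CTRL level rests on 10 counts in the 3 libraries together. ZNF837 (2.05) passed the count filter only with the IM libraries, as did 5 of the 203 members, and its value is a description. The other named rises had log2 fold changes of 1.78 (ZNF491), 1.68 (ZNF345), 1.64 (ZNF233), 1.59 (ZNF665), 1.53 (ZNF570) and 1.5 (ZNF112). The call for ZNF345 was lost without CTRL replicate 1 or without CTRL replicate 3.

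The 8 members that fell in IM 18h included some of the most abundant of the family. ZNF121, the member with the second highest mRNA level, was at 167, 142 and 136 CPM in CTRL and at 87.6, 106 and 93.9 CPM in IM 18h. Its log2 fold change was -0.63 (SE 0.14, adjusted p = 0.00101), just past the fold threshold, and the call was lost without CTRL replicate 1 or without IM 18h replicate 1. At IM 6h it was already at 94.5, 70.5 and 86.6 CPM, a log2 fold change of -0.82. ZNF146 went down by less than the threshold, with -0.50 (adjusted p = 0.000444).

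ZNF792 (chr19:34956354-34964049, minus strand) was at 17.5, 21.6 and 24.3 CPM in CTRL and at 7.44, 8.05 and 8.58 CPM in IM 18h. Its treated libraries were close together and all below CTRL, with a log2 fold change of -1.40 (SE 0.32, adjusted p = 0.0011). ZNF296 had the largest fall, from 5.35, 3.72 and 8.42 CPM to 1.95, 2.47 and 1.82 CPM, or -1.48 (SE 0.40, adjusted p = 0.00484). ZNF77 (-1.26), ZNF57 (-1.07), ZNF584 (-0.82), ZNF576 (-0.67) and ZNF787 (-0.66) were the others. ZNF576 lost its call without CTRL replicate 3 or IM 18h replicate 1.

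At IM 6h the higher members were led by ZNF491, with a log2 fold change of 1.49 that lost its call without CTRL replicate 1, and by ZNF846. ZNF846 was at 8.66, 7.60 and 10.4 CPM against 3.75, 4.40 and 3.68 CPM in CTRL, with a log2 fold change of 1.17 (SE 0.19, adjusted p = 0.000144). ZNF431, described as a repressor of the Hedgehog receptor gene Patched1, was at 66.3, 66.5 and 106 CPM against 42.8, 45.6 and 41.6 CPM, a log2 fold change of 0.88 (SE 0.14, adjusted p = 0.000168). IM 6h replicate 3 was far above the other treated libraries, and the ZNF431 call was lost without it. ZNF77, ZNF792, ZNF57, ZNF121 and ZNF584 made up the 5 that were lower, ZNF584 not without CTRL replicate 3. The IM 6h count depended on single libraries, with 9 members called without CTRL replicate 1 and 25 without CTRL replicate 2, in place of 14.

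JTE gave a small fall of the family at 1 h. At JTE 1h, 0 members were higher and 12 were lower, or 5.91%, where 0.387% and 0.464% of all genes were. The median log2 fold change of the members was -0.27 against 0.01 over all genes, and 161 of 203 members were below 0. The count of 12 depended on the libraries. It was 5 without CTRL replicate 1, 3 without CTRL replicate 2, 5 without JTE 1h replicate 2, 2 without JTE 1h replicate 3, and 0 when the spread was estimated from the JTE 1h and CTRL libraries alone. The median in fits without 1 library ran from -0.41 to -0.18.

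ZNF526, which has fingers but no KRAB motif and lies outside the clusters at chr19:42220271-42228201, was the firmest of the 12. It was at 26.3, 21.4 and 24.2 CPM in CTRL and at 8.12, 12.6 and 9.02 CPM in JTE 1h. The groups were well apart, with a log2 fold change of -1.28 (SE 0.17, adjusted p = 0.000153), and the call held in all 6 fits without 1 library, while with the JTE 1h and CTRL libraries alone the adjusted p was 0.109, the highest of its alternatives, which began at 1.03e-09 with DESeq2.

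ZNF17 was at 6.06, 6.97 and 6.80 CPM in CTRL and at 2.78, 3.06 and 3.26 CPM in JTE 1h, a log2 fold change of -1.12 (SE 0.20, adjusted p = 0.00325), and also held in all 6 fits. ZNF441 fell from 11.2, 12.2 and 12.3 CPM to 7.02, 6.42 and 4.32 CPM, or by 1.00 on the log2 scale (SE 0.19, adjusted p = 0.00754). Without JTE 1h replicate 3, its lowest library, the ZNF441 call was lost. The named others fell by 1.54 (ZNF878), 1.15 (ZNF543), 1.03 (ZNF805), 0.90 (ZNF613), 0.76 (ZNF586), 0.74 (ZNF708) and 0.74 (ZNF324) on the log2 scale, and each of these calls was lost in 3 or more of the 6 fits.

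At 6 h of JTE more genes were called than at 1 h, among the members as among all genes, and the calls went both ways, while the median of the members lay nearer to 0. At JTE 6h, 11 members were higher and 24 lower, or 5.42% and 11.8%, where 6.73% and 6.47% of all genes were. The median of the members was -0.07 against 0.03. ZNF genes on other chromosomes (10 of 205 higher, 28 lower, median -0.04) and the other protein-coding genes of chromosome 19 (40 of 805 higher, 91 lower, median -0.09) were close to this. ZNF583 had the largest fall, from 4.85, 4.98 and 5.24 CPM in CTRL to 0.682, 0.797 and 1.44 CPM, a log2 fold change of -2.34 (SE 0.28, adjusted p = 1.47e-06). ZNF576 went from 7.88, 7.02 and 10.0 CPM to 2.29, 2.45 and 2.11 CPM, or -1.86 (SE 0.21, adjusted p = 7.09e-07). In both genes every treated library was below every CTRL library.

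ZNF526 was still low at 6 h, at 8.37, 15 and 9.24 CPM, a log2 fold change of -1.14 (adjusted p = 3.15e-05). ZNF226 (-1.73), ZNF784 (-1.68), ZNF414 (-1.45), ZNF347 (-1.26) and ZNF584 (-1.09) were among the other falls. In the other direction, ZNF134 rose from 15.7, 16 and 14.3 CPM to 29.1, 26.3 and 29.6 CPM, a log2 fold change of 0.89 (SE 0.19, adjusted p = 0.00142). ZNF404 rose from its low CTRL level to 1.92, 0.968 and 1.72 CPM, or by 3.04 (SE 0.50, adjusted p = 8.8e-05).

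At JTE 18h, 1 member was higher and 4 were lower, where 3.29% and 2.09% of all genes were. They were ZNF112 (1.12, adjusted p = 0.0223), higher, and ZNF235 (-1.12), ZNF226 (-0.88), ZNF586 (-0.79) and ZNF880, lower. ZNF880, which is outside the rule for named genes, rests on 4 counts in JTE 18h against 29 in CTRL. The ZNF112 call was lost when any of CTRL replicates 1 and 3 and JTE 18h replicates 1 and 2 was left out, the ZNF226 call when any of CTRL replicates 1 and 2 and JTE 18h replicates 1 and 3 was left out, and the ZNF235 call without JTE 18h replicate 1.

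The direct comparison of JTE 18h with JTE 6h, which used no CTRL library, called 19 members higher and 13 lower at 18 h, or 9.36% and 6.4%, where 7.76% and 5.68% of all genes were. ZNF583 (1.67), ZNF576 (1.53), ZNF414 and ZNF347 were higher at 18 h than at 6 h. ZNF526 stood at 20.6, 23.5 and 21.2 CPM at 18 h, above all 3 libraries of 6 h and close to CTRL, with a log2 fold change of 1.00 (adjusted p = 0.000206). ZNF404 (-1.82), ZNF382 (-2.85), which passed the count filter only with the JTE libraries, and ZNF134 (-0.72) were lower at 18 h. The ZNF382 value is a description, and ZNF134 lost its call without JTE 18h replicate 3.

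**Figure D2:**
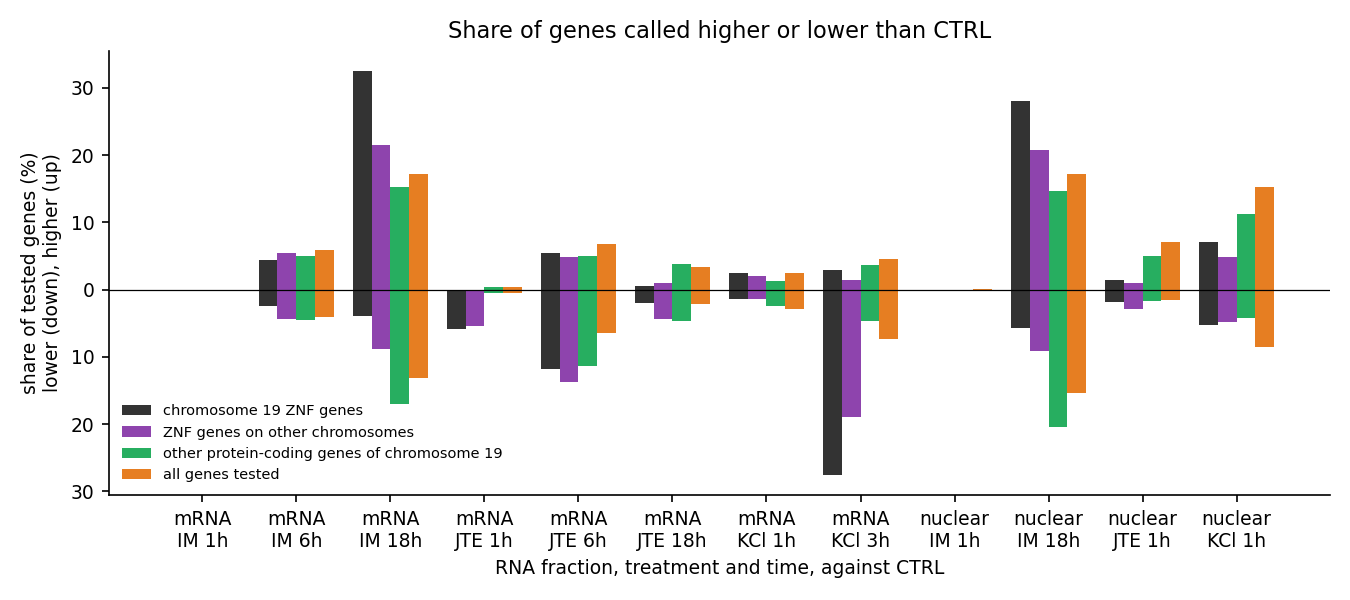
Share of tested genes (y axis, percent) called higher (up) or lower (down) than CTRL, for chromosome 19 ZNF genes, ZNF genes on other chromosomes, other protein-coding genes of chromosome 19 and all genes in each comparison (x axis). In KCl 3h mRNA the chromosome 19 ZNF genes have 27.6% lower against 7.33% of all genes, and in IM 18h mRNA 32.5% higher against 17.2%.

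Hyperosmotic shock lowered more members than any other treatment, and did so between 1 and 3 h. At KCl 1h, 5 members were higher and 3 lower, or 2.46% and 1.48%, where 2.51% and 2.94% of all genes were, and the median was 0.01, the same as over all genes. At KCl 3h, 6 were higher and 56 lower, or 2.96% and 27.6%, where 4.55% and 7.33% of all genes were. The median of the members was -0.34 against 0.02 over all genes, and 144 of 203 were below 0. In fits without 1 library the KCl 3h count called in either direction ran from 53 to 60.

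ZNF441 (chr19:11767000-11784078) went down in steps with the time in KCl. It was at 11.2, 12.2 and 12.3 CPM in CTRL, at 6.37, 7.30 and 6.74 CPM in KCl 1h and at 2.30, 2.27 and 3.32 CPM in KCl 3h. The 3 groups did not overlap, and the log2 fold change was -0.80 at 1 h (SE 0.19, adjusted p = 0.00751) and -2.17 at 3 h (SE 0.20, adjusted p = 7.55e-08).

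ZNF439 (chr19:11848726-11883750), in the same cluster as ZNF441, was higher over the same hours. It was nearly silent in CTRL, at 0.11, 0.262 and 0.223 CPM, and stood at 1.71, 1.62 and 1.81 CPM in KCl 1h and at 4.01, 4.39 and 3.81 CPM in KCl 3h. The log2 fold change was 3.07 at 1 h and 4.32 at 3 h. ZNF439 and ZNF415 were among 4 of the 203 members that passed the mRNA count filter only with the KCl libraries, where they are high, so these values are descriptions and no test of them is given. In the IM and JTE groups no mRNA library had more than 11 counts of ZNF439, where the KCl libraries had 33 to 97. A same-strand gene overlaps ZNF439, and counts from transcription that runs in from outside were not told apart from those of its own transcripts.

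**Figure D3:**
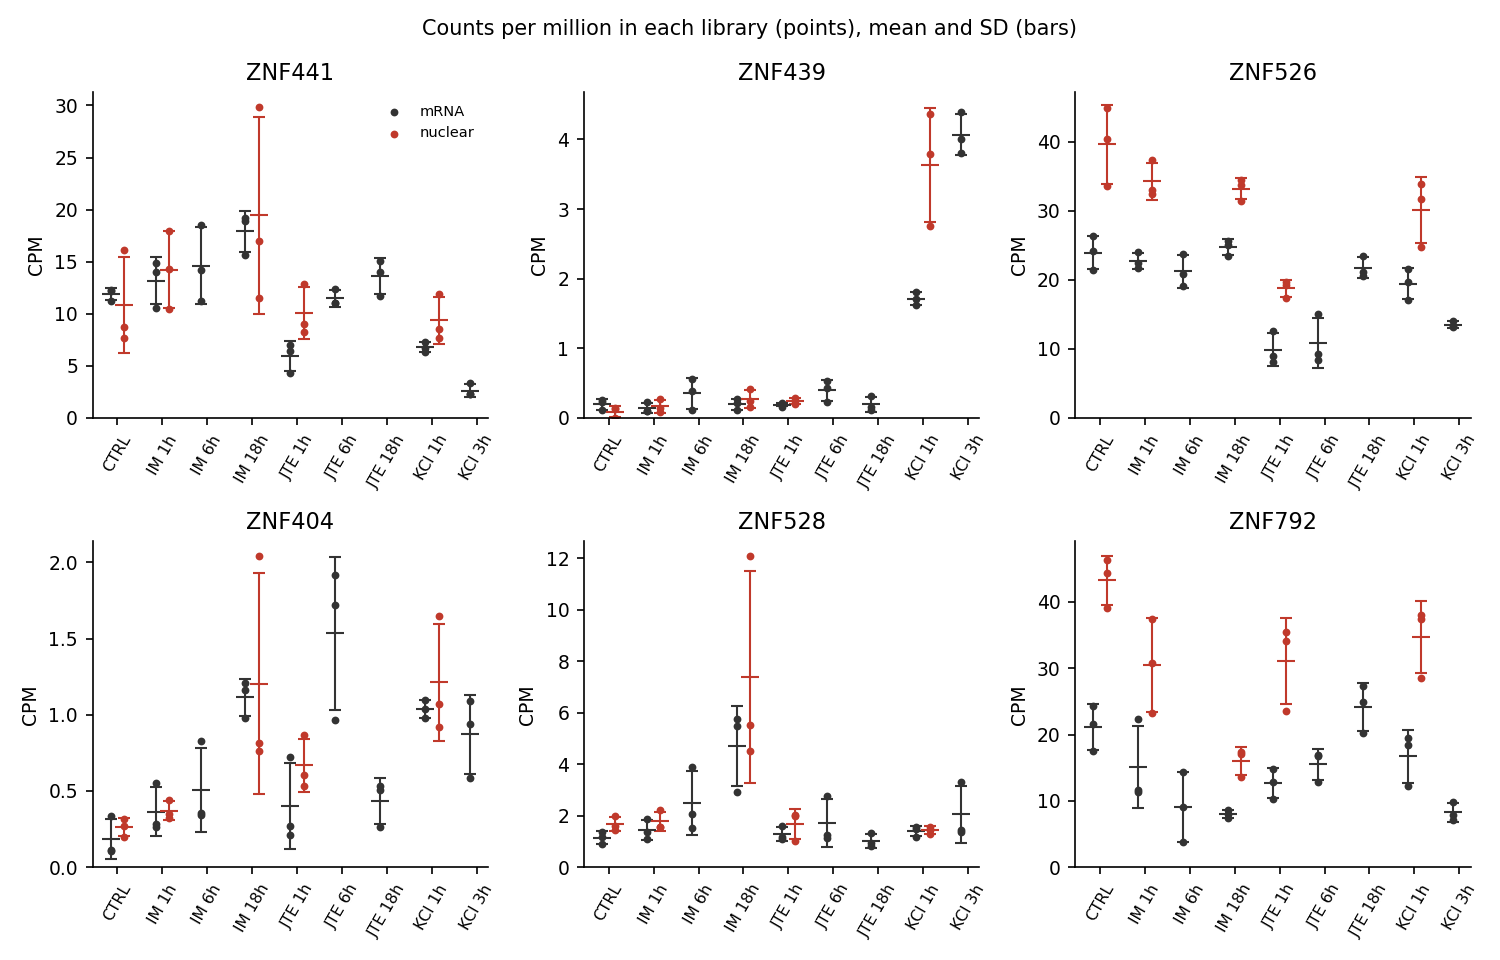
CPM (y axis, from 0) of selected chromosome 19 ZNF genes in each library (points) with the mean and SD of 3 libraries (bars) in all groups (x axis), mRNA in black and nuclear RNA in red. ZNF441 is lowest in KCl 3h, at 2.27 to 3.32 CPM, while ZNF439 is highest in the KCl groups, at 3.81 to 4.39 CPM in KCl 3h mRNA.

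ZNF506 had the largest fall at KCl 3h, from 1.76, 2.20 and 1.11 CPM to 0.392, 0.189 and 0.396 CPM, or -2.37 (SE 0.42, adjusted p = 0.00024). ZNF14 went from 5.95, 8.07 and 5.57 CPM to 2.11, 1.98 and 1.58 CPM, or -1.79 (SE 0.24, adjusted p = 1.04e-05). ZNF154, a gene known for promoter methylation in many tumours, fell by 1.94 on the log2 scale. ZNF878 (-2.26), ZNF416 (-1.86), ZNF222 (-1.70), ZNF443 (-1.63), ZNF442 (-1.60) and ZNF230 (-1.51) completed the named falls. Abundant members took part too, ZNF121 with -1.41 (adjusted p = 2.72e-07) and ZNF792 with -1.36.

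The 6 higher members at KCl 3h were ZNF439, ZNF404 (2.23), ZNF415, ZNF554 (0.93), ZNF550 (0.69) and ZNF569 (0.66). ZNF415, outside the rule for named genes in both KCl mRNA groups, as was ZNF404 at 3 h, had 32 counts against 4 in CTRL, a ratio of 7.14 after scaling for library size with a 95% exact binomial interval of 2.53 to 27.8 that covers counting error only. The calls for ZNF554, ZNF550 and ZNF569 were lost in 4 or more of the 6 fits without 1 library. At KCl 1h the higher members were ZNF439, ZNF404 (2.48), ZNF415, ZNF626 (0.96) and ZNF566. ZNF566 was at 17.2, 17.1 and 15.9 CPM against 10.2, 11.4 and 10.6 CPM, a log2 fold change of 0.64. The lower ones were ZNF441, ZNF506 (-1.41) and ZNF726 (-0.60). ZNF506 lost its call without CTRL replicate 1 or 2 or KCl 1h replicate 1 or 2, and ZNF726 without CTRL replicate 1 or 2 or KCl 1h replicate 3.

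KCl 3h was also compared with KCl 1h directly. At 3 h, 1 member was higher and 36 were lower, or 0.493% and 17.7%, where 1.37% and 1.92% of all genes were, and the median was -0.38 against 0.01 over all genes. Of 205 ZNF genes on other chromosomes, 0 were higher and 23, or 11.2%, were lower, with a median of -0.24. ZNF791, in the cluster of ZNF441, went from 26.1, 25.5 and 21.3 CPM at 1 h to 11.6, 10.9 and 12.1 CPM at 3 h, a log2 fold change of -1.07 (adjusted p = 5.31e-06). ZNF121 went from 115, 140 and 96.3 CPM to 60.9, 62.3 and 44.2 CPM, also -1.07. ZNF14 (-1.51), ZNF441 (-1.38, adjusted p = 0.000118), ZNF627 (-1.26) and ZNF708 (-1.05) were among the others. ZNF439 was the 1 member higher (1.25). It passed the mRNA count filter only with the KCl libraries, so this value is a description. The count of 37 became 23 without KCl 1h replicate 2, one of the 2 deep libraries, and 23 without KCl 3h replicate 2, and was 16 with the spread taken from these 2 groups alone.

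Other ZNF genes and other genes of chromosome 19 give the setting. At KCl 3h, 3 of 205 ZNF genes on other chromosomes were higher and 39 lower, with a median of -0.19, while of 805 other protein-coding genes of chromosome 19, 29 were higher and 38 lower, with a median of 0.04. At IM 18h, 44 ZNF genes elsewhere were higher and 18 lower, with a median of 0.17, and 122 of the other chromosome 19 genes were higher and 137 lower, with a median of -0.10. At JTE 1h, 0 ZNF genes elsewhere were higher and 11 lower, with a median of -0.16, against 3 higher and 4 lower and a median of 0.04 for the rest of the chromosome. In these 3 comparisons, but not in JTE 6h, the ZNF genes elsewhere had a median between those of the chromosome 19 members and of their neighbours on the chromosome. The difference between these classes was not tested.

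In nuclear RNA the members followed the mRNA after 18 h of imatinib. At nuclear IM 1h, 0 of 211 members passed the test, where 0.0456% of all genes did, and 11 members, or 5.21%, had an unadjusted p below 0.05 in edgeR's test against 3.85% of all genes. At nuclear IM 18h, 59 were higher and 12 lower, or 28% and 5.69%, where 17.2% and 15.4% of all genes were, and the median was 0.43 against 0.00. Of the 211 members, 8 passed the nuclear count filter only with the IM libraries, ZNF875 among them. Any calls of these in nuclear IM 18h are descriptions, although they enter the counts. Of the 201 members tested in both fractions, 66 were higher in mRNA and 57 in nuclear RNA, and 51 were in both lists, which is 77.3% of the mRNA list and 89.5% of the nuclear list. All 8 that were lower in mRNA were among the 12 lower in nuclear RNA. Over the 201 genes the log2 fold changes of the fractions, which share no library, had a Spearman rho of 0.85.

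ZNF431 was at 133, 95.9 and 106 CPM in nuclear IM 18h against 41.7, 34.5 and 41.0 CPM in nuclear CTRL. The groups were far apart, with a log2 fold change of 1.52 (SE 0.11, adjusted p = 4.23e-09). ZNF528 rose from 1.97, 1.59 and 1.44 CPM to 12.1, 5.54 and 4.51 CPM, or by 2.16 (adjusted p = 2.9e-05). ZNF233 rose from 1.21, 1.00 and 1.19 CPM to 5.18, 3.44 and 4.45 CPM, or by 1.94 (adjusted p = 6.45e-07). ZNF792 fell from 46.3, 44.4 and 39.1 CPM to 13.6, 17.1 and 17.3 CPM, or by 1.44 (SE 0.18, adjusted p = 3.09e-06), close to its change in mRNA. ZNF404 (2.21), ZNF846 (1.42) and ZNF554 (1.40) were among the other rises, and ZNF57 (-1.45), ZNF77 (-0.99) and ZNF584 (-0.97) among the other falls.

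**Figure D4:**
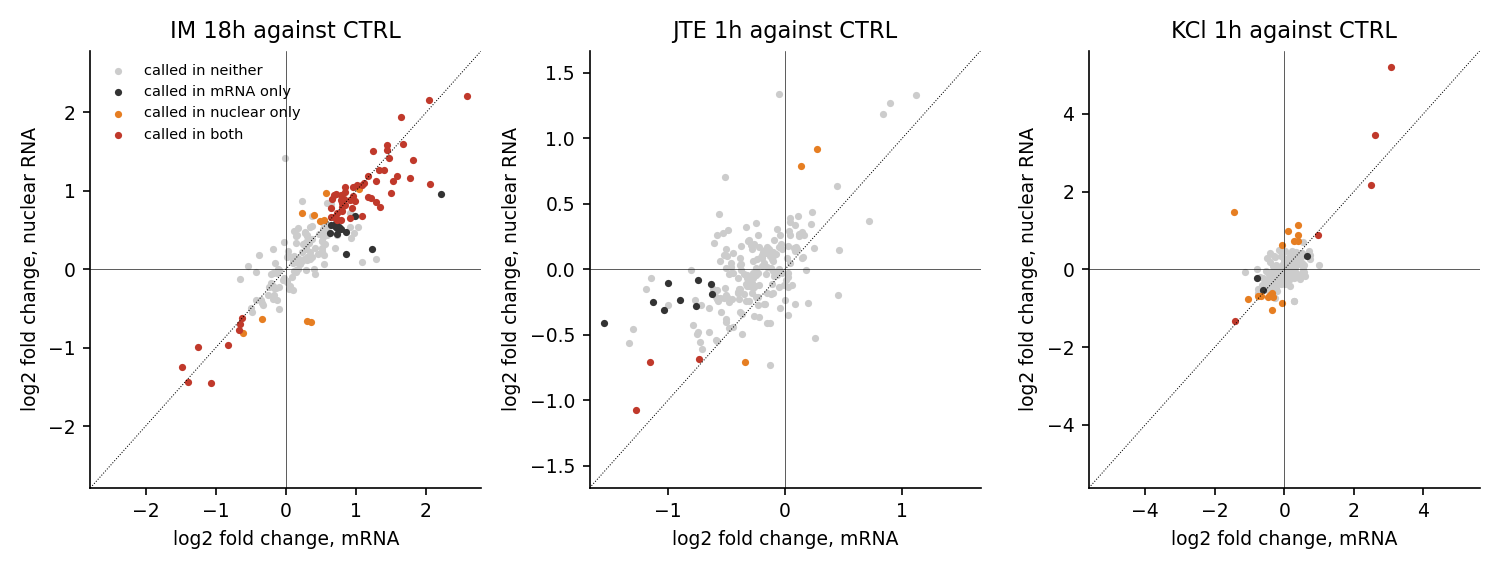
Log2 fold change against CTRL in nuclear RNA (y axis) against that in mRNA (x axis) for chromosome 19 ZNF genes tested in both fractions, by treatment. The points lie closest to a line in IM 18h (rho 0.85 over 201 genes) and are wider in KCl 1h (rho 0.58) and JTE 1h (rho 0.52).

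The nuclear JTE 1h libraries gave few calls among the members. There, 3 were higher and 4 lower, or 1.42% and 1.90%, where 7.0% and 1.51% of all genes were, with a median of -0.04. With the replicate number as a block, 12 members were called in place of 7. ZNF526 led the falls here as well, from 33.6, 40.4 and 44.9 CPM in CTRL to 17.4, 19.2 and 19.7 CPM, a log2 fold change of -1.08 (SE 0.13, adjusted p = 1.27e-05). The others were ZNF446 (-0.71), ZNF543 (-0.71) and ZNF324 (-0.68), and ZNF526, ZNF543 and ZNF324 were also lower in mRNA. The higher ones were ZNF491 (0.92), ZNF626 (0.79) and ZNF709, the last chosen after its values were seen and not past the count filter without the JTE libraries. The ZNF491 call needed JTE 1h replicate 1, and that of ZNF626 needed JTE 1h replicate 3 and the nuclear CTRL replicates 2 and 3. Of the 12 members lower in mRNA, 3 were lower in nuclear RNA, which is 25% of the mRNA list and 75% of the 4 in the nuclear list.

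After 1 h of KCl the share of members called in nuclear RNA was below that of all genes in both directions. In nuclear KCl 1h, 15 members were higher and 11 lower, or 7.11% and 5.21%, where 15.3% and 8.50% of all genes were, and the median was -0.06 against 0.02. ZNF439 stood at 3.79, 2.75 and 4.37 CPM against 0.134, 0.137 and 0 CPM in CTRL. It had 220 counts in KCl 1h and 6 in CTRL, a ratio of 38.9 (95% exact binomial interval 17.6 to 107). ZNF439, ZNF610 and ZNF763 were among 8 of the 211 members that passed the nuclear count filter only with the KCl libraries, where they are high, so their values are descriptions and no test of them is given.

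ZNF610 was at 1.97, 1.63 and 3.54 CPM in nuclear KCl 1h and had 1 count in the 3 CTRL libraries together, against 145, a ratio of 154 with an interval of 27.2 to 6110. ZNF763, which is outside the rule for named genes, had 48 counts against 2, a ratio of 25.5 (6.67 to 216). ZNF415 rose from 0.179, 0.137 and 0.198 CPM to 1.39, 1.86 and 2.52 CPM, a log2 fold change of 3.46 (adjusted p = 6.43e-06). ZNF610, ZNF763 and ZNF415 were at or close to 0 in CTRL.

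The falls in nuclear KCl 1h were led by ZNF506, from 4.38, 3.74 and 5.40 CPM to 1.87, 1.63 and 1.84 CPM, or -1.34 (SE 0.21, adjusted p = 3.4e-05), and ZNF446 (-1.05). ZNF224, a KRAB protein known as a repressor of the aldolase A gene, was also lower, but not without CTRL replicate 1 or KCl 1h replicate 3. ZNF441 was not called, with libraries between 7.67 and 11.9 CPM against 7.72 to 16.1 CPM in CTRL, so its groups overlapped. Among members tested in both fractions, 5 were higher in mRNA and 11 in nuclear RNA, with 4 in both lists, or 80% of the mRNA list and 36.4% of the nuclear list. Of the lower ones 3 and 10, 1 was shared, or 33.3% and 10%.

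The difference between the nuclear and mRNA responses was tested directly, and 0 members passed in each of the 4 treatments. Of all genes, 0% passed for IM 1h, 0.0901% for IM 18h, 0.0605% for JTE 1h and 0.668% for KCl 1h. At an unadjusted p below 0.05 there were 2 of 194 members for IM 1h (1.03%, against 2.03% of all genes), 4 of 201 for IM 18h (1.99% against 4.88%), 23 of 197 for JTE 1h (11.7% against 5.93%) and 13 of 201 for KCl 1h (6.47% against 9.65%). ZNF763 had a nuclear minus mRNA difference of 3.70 in KCl 1h. As it passed the nuclear count filter only with the KCl libraries, this value is a description. The median difference in JTE 1h was 0.25 for the members and 0.05 for all genes. For KCl 1h, 1 member passed without the low-count filter and 3 with the replicate number as a block.

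Along the chromosome the responses were uneven. Of all genes, 7.33% were lower at KCl 3h, and 17.2% were higher and 13.2% lower at IM 18h. At KCl 3h the cluster at the end of the long arm had the lowest median, -0.75, with 18 of 38 tested members lower. The cluster of ZNF441 followed with -0.46 and 8 of 21 lower, then the one beside the centromere with -0.41 and 12 of 30 lower. The cluster between 51571298 and 53580269 had a median of -0.19 with 3 of 34 lower. At IM 18h the cluster with 21 tested members between 43525497 and 44500524 had the highest median, 0.65, with 9 members higher. The cluster of ZNF441 had 0.59, with 8 of 21 higher and 0 lower. The cluster between 55476332 and 56671783 had a median of -0.18, with 1 of 11 higher and 1 lower. Neighbouring members share sequence and are not replicates, so the differences between clusters were not tested.

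**Figure D5:**
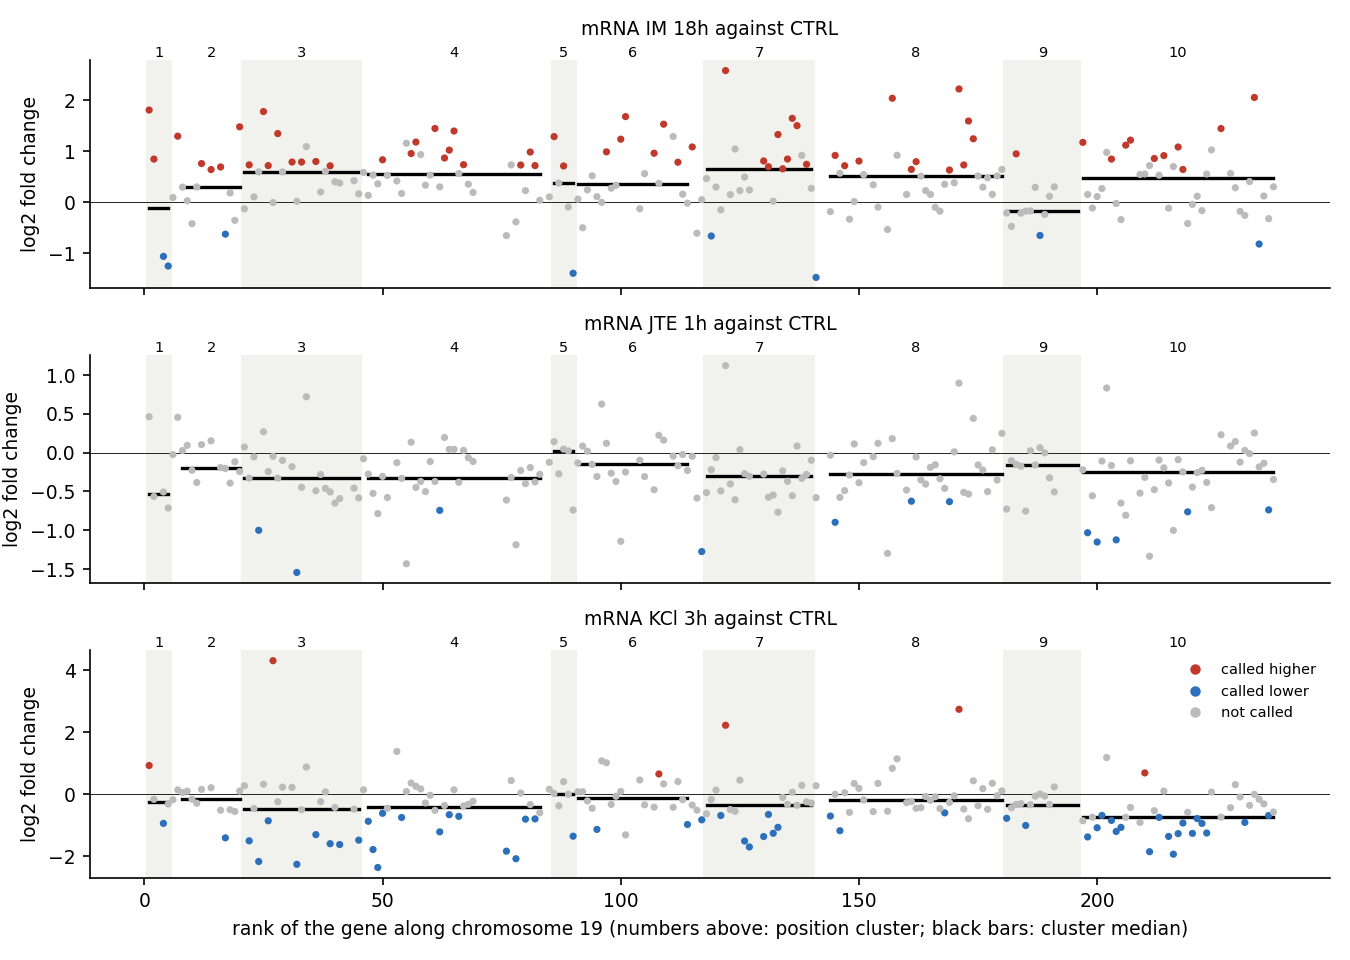
Log2 fold change against CTRL (y axis) of members ranked along chromosome 19 (x axis, with cluster numbers above and cluster medians as black bars) in IM 18h, JTE 1h and KCl 3h mRNA. In KCl 3h the last cluster has the lowest median, -0.75, and in IM 18h most clusters lie above 0.

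Members with and without a KRAB motif had close medians at KCl 3h, -0.36 with 51 of 171 lower and -0.32 with 5 of 32 lower. Of all genes, 7.33% were lower at KCl 3h, and 17.2% were higher and 13.2% lower at IM 18h. At IM 18h, 60 of 171 KRAB members were higher and 3 lower, with a median of 0.53, while of 32 without the motif 6 were higher and 5 lower, with a median of 0.19. The level of a gene, its mean CPM over all mRNA libraries, IM 18h among them, went with the size of the IM 18h change. Of the 68 members with the lowest level 30 were higher, with a median of 0.92, and the middle and highest groups had 21 and 15 higher and medians of 0.30 and 0.25. Low counts give a wider spread of fold changes, and the part of that spread in this order was not tested. With only members of a mean of at least 1 CPM, the IM 18h median was 0.36.

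The number of fingers had a Spearman rho of 0.09 with the change at IM 18h and -0.07 at KCl 3h over the tested members. The genomic span had a rho of 0.23 at KCl 3h and 0.36 at KCl 1h. A same-strand gene ended within 10 kb upstream of 88 members, and the median change at KCl 3h was -0.35 for the tested ones and -0.34 for the others.

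Over the 8 mRNA comparisons with CTRL, 130 members were called in at least 1, 73 in none and 22 in both directions, that is 64% of the members in at least 1 against 47.9% of all genes, and 10.8% in both directions against 3.82%. All 8 comparisons share the CTRL libraries. ZNF404 and ZNF415 were called higher most often, in 4 each, namely IM 18h, JTE 6h, KCl 1h and KCl 3h. As ZNF415 passed the mRNA count filter only with the KCl libraries, its KCl values and its place in this order are descriptions. ZNF415 had 20 counts in IM 18h and 19 in JTE 6h against 4 in CTRL, ratios of 4.96 (1.66 to 20) and 4.80 (1.6 to 19.4). ZNF792 was called lower in 3, IM 6h, IM 18h and KCl 3h. ZNF491 was called higher in 3, and ZNF226 lower in 3 and higher in 1.

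A few members with well-known targets are given outside the rule for named genes, with their values in view. ZNF91 and ZNF93, which repress SVA and LINE-1 elements, lie in the cluster beside the centromere. ZNF91 was at 4.52 to 7.91 CPM in CTRL and 9.57 to 10.6 CPM in IM 18h, a log2 fold change of 0.73 (adjusted p = 0.0443), and had 0.04 in KCl 3h. ZNF93 had 0.53 in IM 18h, short of the threshold, and was lower in JTE 6h (-0.75, adjusted p = 0.00225). ZNF417 and ZNF587, closely related repressors of endogenous retroviruses of the HERV-K group, were both lower in KCl 3h, by 1.25 (adjusted p = 1.76e-05) and 0.94 (adjusted p = 1.05e-05) on the log2 scale. Over the mRNA comparisons with CTRL, ZNF417 was called lower in 1 and ZNF587 in 2. ZNF587 was also low in JTE 6h mRNA, at 20.8 to 31.9 CPM against 45.9 to 51.1 CPM in CTRL. As 21.7% of the 100-base runs of ZNF417 and 14.7% of those of ZNF587 are shared with other members, their counts rest on the remaining sequence.

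The KRAB corepressors, 16 genes that encode TRIM28, SETDB1 and the proteins around them, gave 1 call each in mRNA IM 18h and JTE 6h, or 6.25% of the list, where 17.2% and 6.73% of all genes were called higher. ATRX, a chromatin remodeler that places histone H3.3 in heterochromatin, was at 82.1, 86.0 and 88.5 CPM in IM 18h against 50.3, 62.5 and 51.3 CPM, a log2 fold change of 0.64 (adjusted p = 0.0122). CBX5, which encodes HP1 alpha, was at 738, 522 and 930 CPM in JTE 6h against 284, 412 and 466 CPM, or 0.91 (adjusted p = 0.0342), and this call was lost in 4 of the 6 fits without 1 library. In nuclear IM 18h, ATF7IP, a partner of SETDB1, was higher by 0.76 (adjusted p = 6.36e-06), and MORC2, an ATPase of the HUSH pathway, lower by 0.63 on the log2 scale (adjusted p = 1.89e-05). None of the 16 was called in the KCl comparisons. The ATRX call was lost without CTRL replicate 1 or 3, and the MORC2 call without nuclear CTRL replicate 1 or 3 or IM 18h replicate 1.

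The members that were not tested were rare or absent. In mRNA 34 were below the count filter, none of them above 0.841 CPM in any library, and in nuclear RNA 26, none above 0.960 CPM. In all mRNA libraries 3 members had no count and in all nuclear libraries 4. The share of all counts that fell on the 237 members was 0.270 to 0.287% in CTRL mRNA. It was 0.321 to 0.337% in IM 18h, 0.215 to 0.254% in JTE 1h, 0.243 to 0.26% in JTE 6h and 0.199 to 0.220% in KCl 3h. None of these treated ranges overlapped with that of CTRL, while those of the other treated mRNA groups did. In nuclear RNA the share was 0.293 to 0.340% in CTRL and 0.342 to 0.402% in IM 18h.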

How the data were processed

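RNA from 27 mRNA and 15 nuclear libraries of K562 cells was analysed. The deposited values are raw counts per gene ID, which the authors made with STAR and featureCounts on GRCh38.p14 after adapter trimming and removal of duplicate read pairs without molecular identifiers; they kept uniquely mapped reads, limited introns to 10 kb and set no strand option. The annotation release is not given in the sources used here; 57532 IDs were found in GENCODE 44, which gave biotypes, positions and proteins.

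Counts were filtered, TMM-scaled and fitted in edgeR 4.0.16 (R 4.3.3), all groups of a fraction together, without a block. Replicates 1 to 3 deviated together with CTRL in nuclear RNA (correlations 0.235 to 0.891, above 0.1 in 4 of 4 groups). The numbers thus pair nuclear libraries. In mRNA the correlations ran from -0.368 to 0.877, and those of replicates 1 to 3 were all above 0.1 in 0 of 8 groups. The highest were those of replicate 3, with 0.877 in IM 1h, 0.861 in JTE 1h and 0.846 in KCl 1h. Alternatives were DESeq2 1.42.0, RLE scaling, no filter, thinned counts, a replicate block, 2 groups only and leaving out libraries. Scripts were tested on simulated data. Members and lists were chosen with earlier results of these data known. Named were up to 10 called members per direction and comparison, with at least 1 CPM and no overlap between groups, the 5 highest per kilobase and the 5 called most often; exceptions are stated.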

Additional observations from a re-analysis of the deposited data

Results flagged for a closer look

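Among the chromosome 19 ZNF genes, 2 results differed between times of the same treatment when the times were compared directly with edgeR. In KCl, 37 members differed between 3 h and 1 h, 1 higher and 36 lower at 3 h, or 0.493% and 17.7%, against 1.37% and 1.92% of all genes. The 1 higher was ZNF439, which passed the count filter only with the KCl libraries. Of 205 ZNF genes on other chromosomes, 0 were higher and 23, or 11.2%, were lower. The count of 37 was 23 without KCl 1h replicate 2, 23 without KCl 3h replicate 2, and 16 with only these 2 groups. In JTE, 32 members differed between 18 h and 6 h, 19 higher and 13 lower at 18 h, or 9.36% and 6.4%, which is near the 7.76% and 5.68% of all genes. Leaving out JTE 6h replicate 1 gave 19 members, and leaving out JTE 6h replicate 3 gave 21.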

How the results depend on the processing

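Among 1002 alternative values for named log2 fold changes, beside those without 1 library, 926 kept their direction and side of the threshold, 76 lost the call and 0 reversed. Without 1 library, 63 of 167 named results lost the call at least once. With only the 2 groups compared, 30 of 119 mRNA calls were lost and the members called were 0 in JTE 1h, 23 in JTE 6h, 4 in KCl 1h and 16 in KCl 3h against 1h, in place of 12, 35, 8 and 37. Without the fold threshold they were 30 in IM 6h, 14 in JTE 18h, 13 in KCl 1h and 11 in nuclear JTE 1h, in place of 14, 5, 8 and 7. With thinned counts 16 were called in nuclear KCl 1h in place of 26. The IM 18h median was 0.355 with a mean CPM of at least 1, and the KCl 1h median 0.052 without the low-count filter and -0.03 with thinned counts, in place of 0.462 and 0.005.

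The replicate block used the deposited numbers, which pair the nuclear libraries, while their pairing in mRNA is open. It gave 22 members in IM 6h, 12 in JTE 18h, 12 in nuclear JTE 1h and 3 in the nuclear minus mRNA difference of KCl 1h (1 without the low-count filter), in place of 14, 5, 7 and 0. It cost 0 of 48 nuclear and 3 of 119 mRNA named calls, and moved no other count by over 1.5 times.

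Without 1 library, the members called ranged over 9 to 25 (IM 6h), 57 to 82 (IM 18h), 2 to 10 (JTE 1h), 27 to 38 (JTE 6h), 4 to 8 (JTE 18h), 5 to 10 (KCl 1h), 53 to 60 (KCl 3h), 59 to 91 (nuclear IM 18h), 5 to 8 (nuclear JTE 1h), 20 to 27 (nuclear KCl 1h), 19 to 35 (JTE 18h against 6h), 23 to 37 (KCl 3h against 1h) and 0 to 1 (nuclear minus mRNA difference of KCl 1h, with 1 called without nuclear KCl 1h replicate 2). The JTE 18h count was 8 without CTRL replicate 2, the KCl 1h count 5 without CTRL replicate 1, and the JTE 18h against 6h count 19 without JTE 6h replicate 1 and 21 without JTE 6h replicate 3. The medians ranged over 0.35 to 0.55 (IM 18h), -0.409 to -0.175 (JTE 1h), -0.161 to 0.001 (JTE 6h), -0.143 to -0.019 (JTE 18h), -0.03 to 0.093 (KCl 1h) and -0.051 to 0.043 (nuclear JTE 1h). The JTE 1h median was -0.409 without JTE 1h replicate 1, the JTE 6h median 0.001 without CTRL replicate 2, the JTE 18h median -0.143 without CTRL replicate 3 and -0.019 without CTRL replicate 2, the KCl 1h median 0.093 without CTRL replicate 2 and -0.03 without CTRL replicate 1 or 3, and the nuclear JTE 1h median 0.043 without nuclear CTRL replicate 1. The cause of these moves was not tested. Depth limits members near 0 in CTRL, whose ratios have wide counting intervals.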
